A study of Mus musculus with 6 samples.

Results

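Interferon-stimulated genes were followed in livers and adrenal glands of mice that lack the sterol transporter gene Abcg8 and were fed different sterols. The set held 42 named genes of the 33639 gene symbols of the deposited tables. It was taken by name, but with earlier results of these data known. It covered sensors of foreign RNA, the transcription factors that carry the interferon signal, the antiviral effectors of the IFIT, OAS and Mx families, the ISG15 system, membrane and nucleotide-level antivirals, interferon-inducible GTPases, and the immunoproteasome with its peptide transporter. All 42 genes reached the limit used here, 1 CPM (counts scaled to a library of equal size) in at least 1 library of the tissue, in liver and in adrenal, among 13378 genes analysed in liver and 14224 in adrenal.

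Interferons bind paired receptors on the cell surface, whose JAK kinases phosphorylate STAT proteins. After type I or type III interferon, a complex that holds Stat2 and Irf9 binds the interferon-stimulated response element (ISRE) in front of its target genes, and interferon gamma acts through the gamma-activated site (GAS). The genes switched on in this way act against viruses and intracellular microbes, and in liver they are made by hepatocytes as well as by resident macrophages, endothelium and incoming leukocytes.

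The mice were Abcg8 knockouts, titled G8KO. Per the labels all were male and received a diet low in sterols that contained 0.005% ezetimibe, which blocks intestinal sterol uptake, until weaning. They were then fed low sitosterol, high sitosterol, ergosterol or stigmasterol for 12 weeks. RNA came from 1 mouse per group, with liver for all 4 diets and adrenal for low and high sitosterol only, and no source used here gives the sterol content of the diets. The stated comparisons were each sterol-loaded liver against the low sitosterol liver and the high against the low sitosterol adrenal. Sitosterol and stigmasterol come from plants, and ergosterol from fungi.

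No difference below has a replicate check: each ratio compares 2 libraries, not 2 diets, and its interval covers counting error only. The libraries held 41546507 to 50573364 estimated counts each, so a count of 0 allows up to 0.0593 to 0.0722 CPM, taking 3 counts as the limit. Abcg8 itself had 51 counts in the low sitosterol liver, 490 with high sitosterol, 394 with ergosterol, 788 with stigmasterol, and 2 and 3 in the adrenals. No source used here says which part of the gene was deleted, so a total over the gene does not check the knockout. The Y-linked gene Eif2s3y had 1293 to 1680 counts in the livers but 0 and 2 in the adrenals, which goes against the male label of both adrenal libraries. The low sitosterol liver also stood apart, since adrenal cortex genes had a median there of 0.147% of their low sitosterol adrenal level, against 0.00595% to 0.0184% in the other 3 livers. At that share the adrenal levels of the 42 genes would come to at most 2.82% of their level in the low sitosterol liver, the highest being that of Rsad2.

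Promoter sequences are shown for some of the genes with the letters of the ISRE close to their start sites. RefSeq windows of GRCm38.p6 were matched by name for 32 of the 42 genes. Oas2, Mx1, Mx2 and Zbp1 were among those with no window. The 250 bases before each start were searched on both strands for the ISRE core (GAAA, any 2 bases, GAAA, which reads TTTC, any 2 bases, TTTC on the other strand) and the GAS core (TTC, any 3 bases, GAA). Overlapping matches were allowed. Capitals mark the ISRE cores, and each sequence is written 5′ to 3′ on the strand of the gene.
Isg15, chr4:156200850-156200921, minus strand: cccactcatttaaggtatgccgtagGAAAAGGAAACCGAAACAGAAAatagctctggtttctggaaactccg
Ifit1, chr19:34640760-34640838, plus strand: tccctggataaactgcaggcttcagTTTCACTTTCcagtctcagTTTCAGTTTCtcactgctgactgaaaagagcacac
Ifit3, chr19:34583348-34583441, plus strand: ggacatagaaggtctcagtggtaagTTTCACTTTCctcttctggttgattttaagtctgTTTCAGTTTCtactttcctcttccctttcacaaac
Oas3, chr5:120777700-120777759, minus strand: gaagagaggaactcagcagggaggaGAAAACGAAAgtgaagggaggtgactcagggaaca
Rsad2, chr12:26456538-26456597, minus strand: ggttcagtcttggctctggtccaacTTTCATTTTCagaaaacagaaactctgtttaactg
Trim30a, chr7:104465195-104465254, minus strand: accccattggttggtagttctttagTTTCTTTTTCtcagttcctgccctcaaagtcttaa
Stat2, chr10:128270251-128270310, plus strand: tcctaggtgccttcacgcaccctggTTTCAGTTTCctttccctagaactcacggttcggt

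The Isg15 stretch holds 3 overlapping cores, and those of Ifit1 and Ifit3 hold 2 each. The same letters as in the Ifit3 stretch stand before Ifit3b, at chr19:34607744-34607837. The core was present in 15 of the 32 matched genes (46.9%), against 3.46% of the 27025 genes with a window. Matched genes without it included Cmpk2, Ifit2, Ifi44, Oasl1, Oasl2 and Irf1. The GAS core was present in 7 of the 32 (21.9%), against 8.13% of all genes, and one of these was Irf1. A match of letters is a description of the window and not a measured binding site.

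Levels between genes are given as TPM (transcript abundance set per length within each library). The set was carried by a few abundant transcripts. Ifitm3, which blocks the fusion of virus with the cell membrane, was the highest of the 42 in the low sitosterol liver at 1083 TPM and ranked 103 among all genes there. Bst2 (tetherin, which holds budding virus at the cell surface) followed at 434 TPM and Ifi27, an interferon-induced membrane protein, at 250.5 TPM. These 3 genes made up between 76.1% and 83.0% of the TPM summed over the set in the livers, with ergosterol lowest and low sitosterol highest, and 65.4% and 61.4% in the adrenals. The sums were 2129 TPM with low sitosterol, 2798 with high sitosterol, 1837 with ergosterol and 3110 with stigmasterol, and 2523 and 2299 in the adrenals on the low and the high sitosterol diet. The median gene of the set stood far below, at 4.56, 8.43, 6.20 and 14.3 TPM in the same order of livers, against 21.97 and 21.87 in the adrenals. In the low sitosterol liver 6 of the 42 were under 1 TPM, and in the stigmasterol liver 0 were. The order of the livers turns with the scale. On scaled CPM, used below between libraries, the sums were 1888, 2062, 1441 and 1629 in that order, with stigmasterol below low sitosterol. On log2(TPM + 0.1) the median of all genes analysed with stigmasterol was itself 0.94 above low sitosterol.

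**Figure D1:**
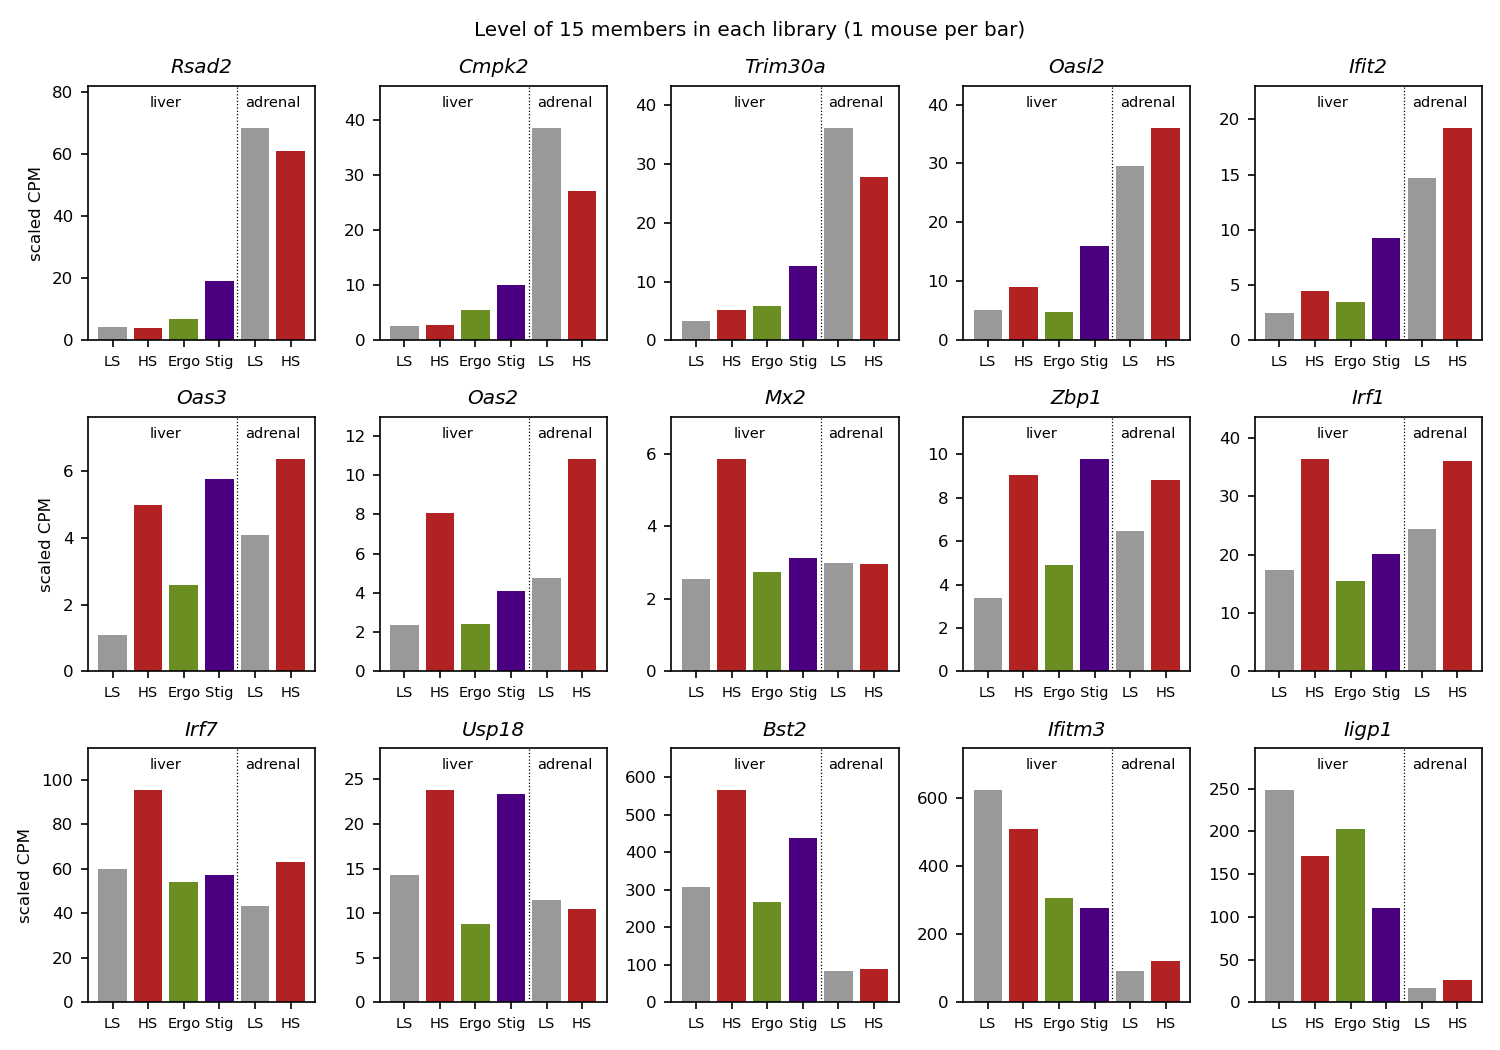
Level of 15 of the genes in each library, in scaled CPM (CPM scaled within the tissue by TMM) on the vertical axis, with 1 bar per mouse; LS and HS are low and high sitosterol, Ergo and Stig are ergosterol and stigmasterol, and each panel has its own axis from 0. Rsad2, Cmpk2, Trim30a, Oasl2 and Ifit2 are highest among the livers with stigmasterol, Oas2, Mx2, Irf1, Irf7 and Bst2 with high sitosterol, and Ifitm3 and Iigp1 with low sitosterol.

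Differences between libraries are given on scaled CPM, counts divided by the library total and a TMM factor fitted within the tissue, as log2 ratios with exact 95% intervals. Higher and lower here mean at least 2-fold with an interval that excludes equality. In the high sitosterol liver 6 of the 42 genes were higher than in the low sitosterol liver (14.3%, against 8.66% of all genes analysed) and 0 were lower (4.3% of all genes): Oas3, Oas2, Zbp1, Mx2, Mx1 and Irf1. In the ergosterol liver 2 were higher (4.76%, against 6.03% of all genes), namely Oas3 and Cmpk2, and 1 was lower (2.38%, against 5.82%), namely Ifitm3. In the stigmasterol liver 13 were higher (31%, against 21.6%) and 2 lower (4.76%, against 7.8%). The stigmasterol share was 24.1% (7 of 29), near that of all genes, without 13 genes listed by name as having close copies. These were Ifit3, Ifit3b, Oas1a, Oasl1, Oasl2, Mx1, Mx2, Gbp2, Gbp3, Gbp7, Trim30a, Iigp1 and Ifitm3. The list did not follow shared sequence. Oasl1 and Oasl2, in it, share 0.409% and 1.23% of their 31-base words with other genes, and Igtp, outside it, 15.9%. With read-sharing pairs summed, chosen after seeing the data, the share was 29.3% (12 of 41). Over all 42, the 13 higher were Oas3, Rsad2, Trim30a, Cmpk2, Ifit2, Mx1, Oasl2, Zbp1, Ifi44, Gbp2, Oasl1, Parp14 and Ifit3b, and the 2 lower were Ifitm3 and Iigp1. The ergosterol shares lay near those of all genes, and the high sitosterol and stigmasterol shares of higher genes over all 42 lay above them. The same low sitosterol library stands under all 3 liver ratios.

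The median log2 ratio of the set was 0.26 with high sitosterol, 0.02 with ergosterol and 0.46 with stigmasterol, beside -0.05, 0.02 and 0.08 for all genes analysed. Above 0 were 30, 23 and 29 of the 42 genes (71.4%, 54.8% and 69%, against 45.6%, 51.8% and 54.3% of all genes). The stigmasterol library was the one most dependent on scaling, with a TMM factor of 1.35 against 0.83 to 0.95 in the other livers. When libraries were scaled by total counts alone, the median of all genes with stigmasterol moved from 0.08 to 0.77 and that of the set from 0.46 to 1.15, and the all-gene share called higher moved from 21.6% to 39.5%. All 13 genes higher with stigmasterol stayed at least 2-fold higher under each of the 5 scalings run (TMM, total counts, DESeq2 size factors and TPM with pseudocounts of 0.1 and 1). Of the 6 with high sitosterol, Irf1, Mx2, Oas2 and Zbp1 did so, and with ergosterol 0 of 2 did. The lower calls of Ifitm3 and Iigp1 held under TMM and DESeq2 scaling and were lost under the other 3. Scaling by total counts changed the sign of 11 genes with stigmasterol, all from below to above 0 and all but Ifitm3 and Iigp1 of those below 0, and of 5 with high sitosterol and 6 with ergosterol. The same 11 changed sign on log2(TPM + 0.1), so a stigmasterol ratio between 0 and -1 has no fixed direction here.

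**Figure D2:**
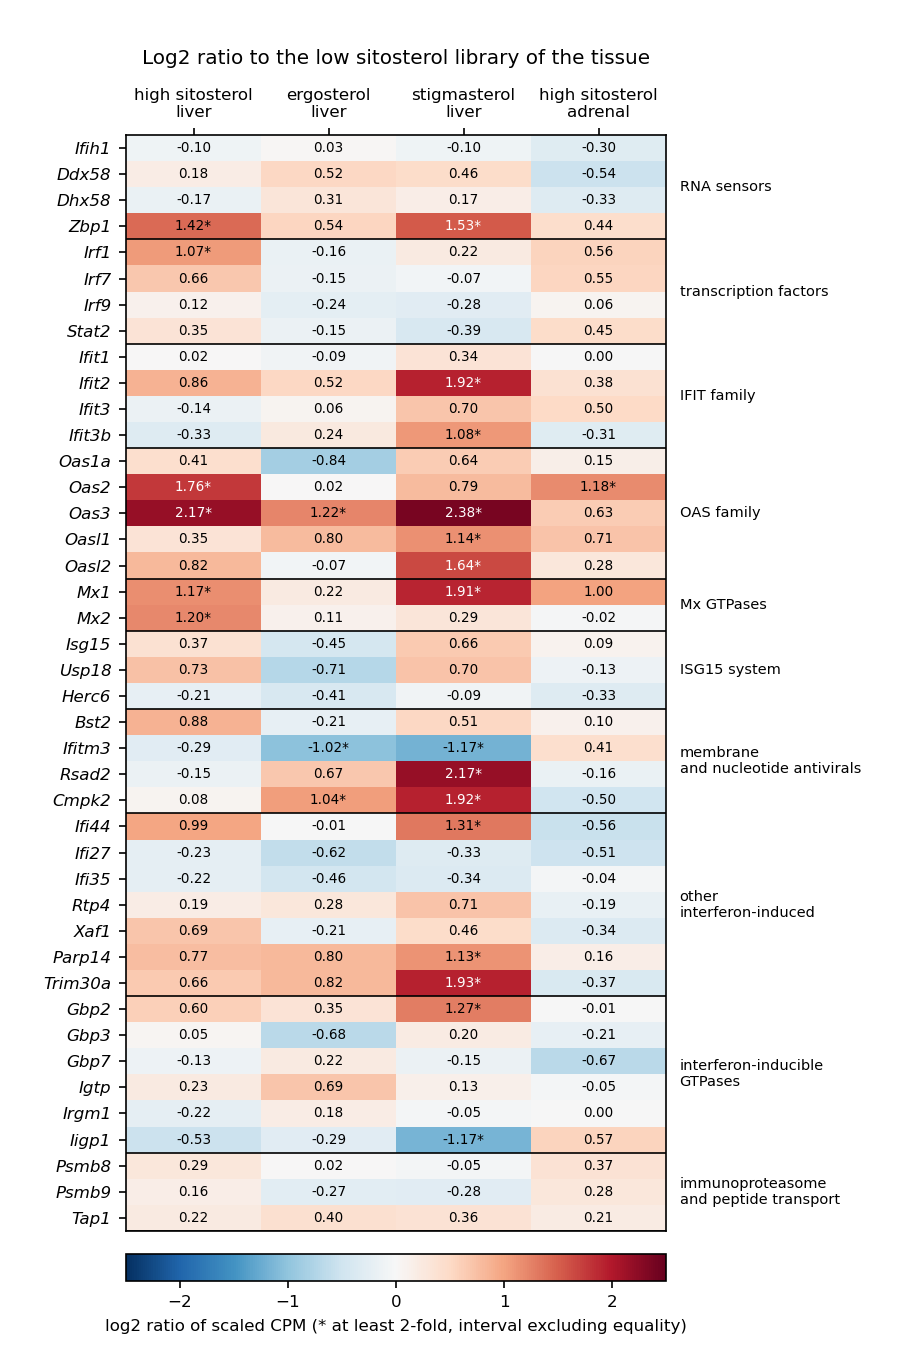
Log2 ratio of scaled CPM to the low sitosterol library of the same tissue for all 42 genes (rows, grouped by role) in the 3 sterol-loaded livers and the high sitosterol adrenal (columns); red is higher, blue is lower, and an asterisk marks at least 2-fold with an interval excluding equality. The stigmasterol column holds 15 asterisks and the adrenal column 1.

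**Figure D3:**
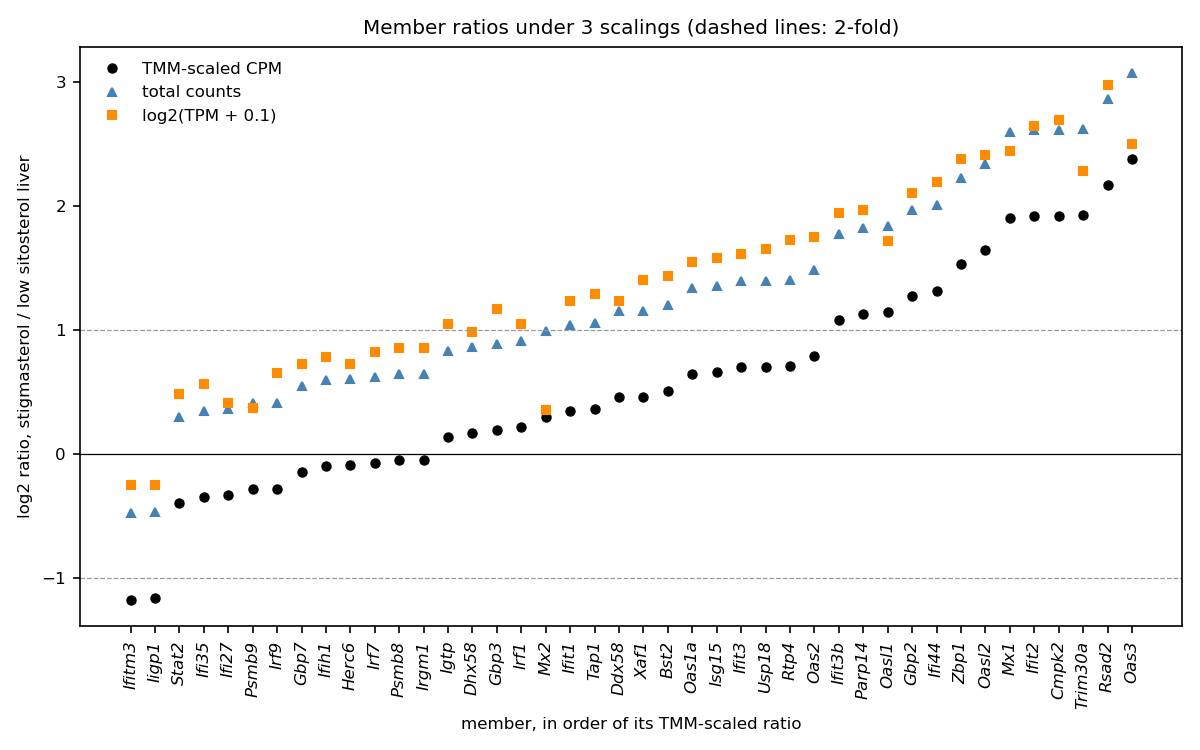
Log2 ratio of the stigmasterol to the low sitosterol liver for each of the 42 genes (horizontal axis, in order of the TMM-scaled ratio) under TMM scaling, total counts and log2(TPM + 0.1), with dashed lines at 2-fold. Total counts and TPM place each gene higher than TMM does, so that Ifitm3 and Iigp1 no longer reach 2-fold lower.

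Cell type markers differed between the same libraries. Of all genes analysed, 8.66% were higher with high sitosterol, 6.03% with ergosterol and 21.6% with stigmasterol, and 4.3%, 5.82% and 7.8% were lower. The 16 Kupffer cell and macrophage markers summed to 465 scaled CPM in the low sitosterol liver, 1336 with high sitosterol, 713 with ergosterol and 960 with stigmasterol, and 12, 3 and 9 of the 16 were higher than with low sitosterol, while 2, 1 and 4 were lower. With stigmasterol the monocyte receptor Ccr2 was higher (log2 3.54) and the resident Kupffer cell genes Timd4 (-3.81) and Clec4f (-1.72) lower. The 8 conventional dendritic cell markers summed to 5.47, 13.1, 7.81 and 38.8 scaled CPM, with all 8 higher with stigmasterol. The 8 plasmacytoid dendritic cell markers, of which 3 were analysed, summed to 7.74, 12.0, 5.66 and 146, with all 3 higher with stigmasterol, where Ly6d gave 9692 of 9972 counts and Siglech 78. T and NK cell markers summed to 6.60, 10.1, 8.24 and 17.6, and B and plasma cell markers to 18.4, 36.4, 30.0 and 77.9. Neutrophil markers (4 of 5 lower with ergosterol) summed to 8.70, 9.54, 1.62 and 9.65, and stellate cell markers (6 of 10 higher with stigmasterol) to 235, 267, 231 and 939. Cholangiocyte markers (10 of 10 higher with stigmasterol) summed to 74.2, 81.7, 55.6 and 950 scaled CPM, and hepatocyte markers (5 of 10 lower with stigmasterol) to 127509, 154764, 125723 and 64690. These sums turn with the scale. On TPM the hepatocyte markers summed to 68055, 100087, 83910 and 64846, so the step down with stigmasterol was smaller. Macrophage markers summed to 288, 1049, 540 and 1175 TPM, highest with stigmasterol. The part of these cell types in the values of the 42 genes was not tested, and fewer cells of a type and less RNA per cell cannot be told apart in bulk tissue.

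Values of a gene are given from here in 1 order: low sitosterol, high sitosterol, ergosterol and stigmasterol liver, then low and high sitosterol adrenal. Among the sensors, Zbp1, which senses nucleic acid in the Z form and can start cell death, had 3.37, 9.05, 4.89 and 9.77 scaled CPM in the livers, against 6.49 and 8.81 in the adrenals. It stood high with high sitosterol (log2 ratio 1.42, interval 1.14 to 1.71) and stigmasterol (1.53, interval 1.27 to 1.81), with ergosterol between these and low sitosterol. The helicases that sense viral RNA in the cytoplasm differed less. Ifih1 (MDA5) kept between 20.6 and 22.5 scaled CPM in all 4 livers, Ddx58 (RIG-I) between 15.3 and 21.95, and Dhx58 (LGP2) between 8.90 and 12.4. None of the 3 differed 2-fold in any diet comparison, and Ddx58 and Dhx58 were lower in the high than in the low sitosterol adrenal by less than 2-fold (log2 -0.54 and -0.33).

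On scaled CPM the transcription factors stood highest with high sitosterol. Irf1, which is induced by interferon gamma and drives antigen presentation genes, had 17.3, 36.4, 15.5 and 20.2 scaled CPM in the livers, against 24.5 and 36.1 in the adrenals. On this scale the high sitosterol liver was above the others (log2 1.07, interval 0.94 to 1.20), but on TPM Irf1 had 8.29, 19.7, 9.56 and 17.3, with the stigmasterol liver close behind. Irf7, the factor that amplifies type I interferon, had 60.1, 95.2, 54.1 and 57.1 scaled CPM in the livers, against 43.3 and 63.2 in the adrenals. Stat2 had 33.9, 43.1, 30.5 and 25.8 in the livers, against 41.2 and 56.3 in the adrenals, and its partner Irf9 had 30.2, 32.8, 25.7 and 24.8, then 42.9 and 44.7. All 4 factors were above 0 for high against low sitosterol in liver and in adrenal, with medians of 0.51 and 0.50, but only Irf1 in liver reached 2-fold. With ergosterol 0 of 4 and with stigmasterol 1 of 4 were above 0 (medians -0.16 and -0.18). Scaled by total counts, all 4 were above 0 with stigmasterol, at 0.30 (Stat2) to 0.91 (Irf1), and on TPM Irf9 was highest with stigmasterol (18.1, against 15.04 with high sitosterol).

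The IFIT proteins bind foreign RNA and hinder its translation, and their genes lie in a cluster on chromosome 19 from 34550694 to 34650009. Ifit2 had 2.44, 4.45, 3.50 and 9.25 scaled CPM in the livers, against 14.7 and 19.2 in the adrenals, highest among livers with stigmasterol (log2 1.92, interval 1.62 to 2.24). Ifit3 had 14.9, 13.6, 15.6 and 24.3 in the livers, against 35.6 and 50.3 in the adrenals. Ifit3b had 3.44, 2.74, 4.09 and 7.30, then 12.4 and 10.03, and Ifit1 had 7.33, 7.43, 6.87 and 9.31, then 20.4 in each adrenal. All 4 were above 0 with stigmasterol (median 0.89), while with high sitosterol the median was -0.06. Of the 31-base words of Ifit3 transcripts, 61.8% are shared with Ifit3b, whose promoter stretch is identical, so the split between the pair is uncertain. Their summed counts gave a log2 ratio of 0.78 with stigmasterol, below 2-fold.

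The OAS enzymes make the short oligoadenylates that switch on RNase L, which cuts RNA. Oas3 had 1.10, 4.99, 2.58 and 5.76 scaled CPM in the livers, against 4.09 and 6.35 in the adrenals. On scaled CPM it had the largest ratio of the 42 in each sterol-loaded liver: log2 2.17 with high sitosterol (interval 1.72 to 2.68), 1.22 with ergosterol (0.72 to 1.76) and 2.38 with stigmasterol (1.94 to 2.87), all against 45 counts with low sitosterol. On log2(TPM + 0.1) another gene stood above it each time: Oas2 with high sitosterol (2.05, against 1.70), Cmpk2 with ergosterol (1.33, against 0.98) and Rsad2 with stigmasterol (2.97, against 2.503). Oas2 had 2.37, 8.05, 2.40 and 4.11 in the livers, against 4.75 and 10.8 in the adrenals. This gene was thus high with high sitosterol in both tissues (log2 1.76, interval 1.44 to 2.10, in liver and 1.18, interval 0.95 to 1.43, in adrenal). It was the only one of the 42 called in the adrenal comparison. Oas2 shares none of its 31-base words with another gene, and Oas3 shares 2.27%.

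The other family members followed different orders. Oas1a had 12.0, 15.9, 6.67 and 18.7 scaled CPM in the livers, against 13.7 and 15.2 in the adrenals, lowest with ergosterol (log2 -0.84, interval -1.06 to -0.63), and 68.8% of its words are shared, nearly all with Oas1g. Summed with Oas1g, the ratio with ergosterol was -0.77. Oasl1, which restrains the translation of Irf7, had 7.08, 9.003, 12.3 and 15.7 in the livers, against 3.29 and 5.40 in the adrenals. Oasl2 had 5.11, 9.003, 4.87 and 16.0, then 29.6 and 35.9. Both OAS-like genes were highest among livers with stigmasterol (log2 1.14 and 1.64), and they differed in the ergosterol liver, where Oasl1 was above and Oasl2 at about the low sitosterol level (0.80 and -0.07).

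Mx1 and Mx2 are GTPases that block virus replication and lie 72401 bases apart, start to start, on chromosome 16. Mx1 had the lowest TPM of the 42 in every library, 0.185 in the low sitosterol liver and 1.45 with stigmasterol. Its scaled CPM was 0.635, 1.45, 0.741 and 2.42 in the livers, from 26, 67, 33 and 165 counts, and 1.23 and 2.48 in the adrenals. Mx2 had 2.54, 5.85, 2.74 and 3.12 in the livers, against 3.002 and 2.958 in the adrenals. Mx1 was highest with stigmasterol (log2 1.91, interval 1.33 to 2.59) and also past 2-fold with high sitosterol (1.17, interval 0.51 to 1.90), whereas Mx2 passed 2-fold with high sitosterol only (1.20, interval 0.87 to 1.54, against 0.29 with stigmasterol). Against the high sitosterol liver itself, Mx2 was lower with stigmasterol by less than 2-fold (log2 -0.90, interval -1.17 to -0.64).

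Isg15 is a ubiquitin-like protein joined to other proteins by ligases that include Herc6 and removed by Usp18, which also damps the type I interferon receptor. Isg15 had 11.7, 15.2, 8.60 and 18.6 scaled CPM in the livers, against 11.3 and 12.0 in the adrenals. Usp18 had 14.3, 23.7, 8.75 and 23.3 in the livers, against 11.5 and 10.5 in the adrenals. Both stood in the same order, ergosterol lowest, then low sitosterol, with the high sitosterol and stigmasterol livers above, and on scaled CPM neither reached 2-fold against low sitosterol in any liver. With total counts both were past it with stigmasterol (1.36 for Isg15 and 1.40 for Usp18). On TPM Isg15 had 17.6 with low sitosterol and 52.8 with stigmasterol, and Usp18 had 7.61 and 24.1. Herc6 had between 6.69 and 8.87 scaled CPM in the livers, against 38.2 and 30.4 in the adrenals. Isg15, whose window shows 3 overlapping ISRE cores, had a stigmasterol ratio of 0.66, and Rsad2, with 1 core, one of 2.17. Across the matched genes the core stood in 5 of the 10 that were higher with stigmasterol and in 10 of the other 22.

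Rsad2 (viperin, which makes a chain-terminating nucleotide) and Cmpk2, a mitochondrial nucleotide kinase that supplies its substrate, lie head to head on chromosome 12 with start sites 12752 bases apart, Rsad2 at 26442746 to 26456452 and Cmpk2 at 26469204 to 26479837. Rsad2 had 4.25, 3.84, 6.76 and 19.2 scaled CPM in the livers, against 68.3 and 60.9 in the adrenals. Cmpk2 had 2.64, 2.79, 5.45 and 10.02 in the livers, against 38.4 and 27.1 in the adrenals. The neighbours kept nearly the same order over the 4 livers: the sitosterol livers low and close to each other, ergosterol above them and stigmasterol on top. With stigmasterol the log2 ratios were 2.17 (interval 1.94 to 2.41) and 1.92 (1.63 to 2.23), and with high sitosterol -0.15 and 0.08. This order differs from that of Oas2, Mx2 and Irf1, which were highest with high sitosterol.

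The abundant membrane proteins went different ways. Bst2 had 308, 565, 267 and 439 scaled CPM in the livers, against 83.9 and 90.0 in the adrenals. Ifitm3 had 621, 507, 306 and 275 in the livers, against 91.0 and 121 in the adrenals. On scaled CPM Bst2 was highest with high sitosterol (log2 0.88, interval 0.84 to 0.91, below 2-fold), while Ifitm3 was highest with low sitosterol and lower with ergosterol (-1.02, interval -1.05 to -0.99) and stigmasterol (-1.17, interval -1.20 to -1.15). On TPM the order turned for Bst2, which had 434, 969, 497 and 1173 TPM and was highest with stigmasterol. With total counts it was past 2-fold in both of these livers (1.07 with high sitosterol and 1.21 with stigmasterol). Ifitm3 stood at 1083, 1067, 702 and 910 TPM in the livers, so the step down with stigmasterol was smaller on that scale. Some 20.5% of the words of Ifitm3 are shared with other genes.

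Of the 7 other interferon-induced genes 3 were higher with stigmasterol (42.9%, against 21.6% of all genes), with a group median of 0.71 against 0.66 with high sitosterol and -0.01 with ergosterol. Trim30a, a TRIM family protein, had 3.30, 5.20, 5.81 and 12.6 scaled CPM in the livers, against 36.0 and 27.8 in the adrenals (log2 1.93 with stigmasterol, interval 1.67 to 2.21). Parp14, an ADP-ribosyltransferase, had 12.4, 21.0, 21.6 and 27.0 in the livers, against 29.5 and 33.1 in the adrenals. It stood above low sitosterol in all 3 sterol-loaded livers (0.77, 0.80 and 1.13), as Trim30a did (0.66, 0.82 and 1.93). Ifi44 had 3.35, 6.67, 3.32 and 8.35, then 29.7 and 20.2, and was just under 2-fold with high sitosterol (0.99, interval 0.70 to 1.30, but 1.19 with total counts) and past it with stigmasterol (1.31, interval 1.05 to 1.60).

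Rtp4, a receptor-trafficking protein, had 10.2, 11.6, 12.3 and 16.6 scaled CPM in the livers, against 26.6 and 23.4 in the adrenals, with a stigmasterol ratio of 0.71 (interval 0.55 to 0.87). Its annotated span overlaps that of Masp1 on the other strand by 525 bases, and reads of overlapping genes cannot be told apart with a kit that does not mark strand. Ifi27 had 184, 157, 120 and 146 in the livers, against 523 and 366 in the adrenals, lower than with low sitosterol in each of the other livers and in the high sitosterol adrenal by less than 2-fold, except that it stood above low sitosterol with stigmasterol under total counts and log2(TPM + 0.1) and, at 0.06, with high sitosterol under the latter. Ifi35 ran from 26.0 to 35.9 and Xaf1, which binds an inhibitor of apoptosis, from 6.46 to 12.1 across the livers.

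The interferon-inducible GTPases attack the membranes around intracellular microbes. Their medians were -0.04, 0.20 and 0.04 in the sterol-loaded livers. With stigmasterol 1 of 6 was higher (16.7%, against 21.6% of all genes) and 1 lower (16.7%, against 7.8%). Gbp2 had 3.35, 5.10, 4.26 and 8.11 scaled CPM in the livers, against 31.2 and 31.1 in the adrenals (log2 1.27 with stigmasterol, interval 1.00 to 1.56). Iigp1 had 248, 171, 203 and 111 in the livers, against 17.3 and 25.7 in the adrenals. On scaled CPM the 2 genes thus moved in opposite ways with stigmasterol, Iigp1 with a ratio of -1.17 (interval -1.21 to -1.12). On TPM Iigp1 had 75.3 with low sitosterol and 63.2 with stigmasterol, less than 2-fold lower. Igtp (20.5, 24.2, 33.2 and 22.5) was highest with ergosterol, Irgm1 ran from 35.0 to 46.1, Gbp3 from 5.05 to 9.27 and Gbp7 from 6.37 to 8.17 across the livers. Igtp overlaps Irgm2 on the same strand by 7974 bases, and the summed pair had a ratio of 0.78 with ergosterol against 0.69 for Igtp alone.

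Psmb8 and Psmb9 replace catalytic subunits of the constitutive proteasome to form the immunoproteasome, and Tap1 carries its peptides into the endoplasmic reticulum. The 3 genes lie together on chromosome 17 from 34181987 to 34201454, and the start sites of Psmb9 and Tap1 are 211 bases apart. Psmb8 had 31.7, 38.7, 32.1 and 30.6 scaled CPM in the livers, against 32.3 and 41.6 in the adrenals. Psmb9 had 24.0, 26.9, 19.9 and 19.7, then 15.8 and 19.2, and Tap1 had 26.2, 30.5, 34.7 and 33.7, then 37.2 and 43.0. On scaled CPM none of the 3 reached 2-fold in any of the 4 diet comparisons, and all 3 were above 0 for high against low sitosterol in both tissues.

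Ratios of subunits within a library do not depend on its scaling. Psmb8 over Psmb5, on TPM, was 0.140, 0.192, 0.209 and 0.151 in the livers, against 0.109 and 0.162 in the adrenals. Psmb9 over Psmb6 was 0.137, 0.182, 0.126 and 0.150, then 0.0821 and 0.107. Psmb10, the third inducible subunit and not one of the 42, stood over Psmb7 at 0.363, 0.663, 0.341 and 0.613, then 0.370 and 0.418. All 3 ratios were higher with high than with low sitosterol, in liver and in adrenal, and with stigmasterol all 3 were higher than with low sitosterol. With ergosterol only the Psmb8 ratio was higher. These are single libraries and the differences were not tested.

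Direct comparisons of the sterol-loaded livers leave out the low sitosterol library and were made with TMM scaling only. With stigmasterol against high sitosterol 5 genes were higher (11.9%, against 16.4% of all genes) and 0 lower (5.6%): Rsad2 at log2 2.31 (interval 2.09 to 2.55), Cmpk2 at 1.84, Ifit3b at 1.41, Trim30a at 1.28 and Ifit2 at 1.05. The lowest ratios were those of Oas2 (-0.97), Mx2 (-0.90), Ifitm3 (-0.88) and Irf1 (-0.85). With ergosterol against high sitosterol 7 were lower (16.7%, against 8.96%) and 0 higher (6.18%): Oas2 (-1.74), Usp18 (-1.44), Oas1a (-1.26), Irf1 (-1.23), Mx2 (-1.09), Bst2 (-1.08) and, at the 2-fold border, Ifi44. With ergosterol against stigmasterol 10 were lower (23.8%, against 19.4%) and 0 higher (7.13%), led by Oasl2 (-1.71) and Mx1 (-1.69). The ergosterol liver was therefore below both other sterol-loaded livers for Usp18, Oas1a and Ifi44, which were called in both comparisons. Set medians were 0.15, -0.31 and -0.40, beside 0.10, 0.01 and -0.03 for all genes.

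Counting each gene by the liver where its scaled CPM was highest gave 19 with stigmasterol, 11 with high sitosterol, 7 with ergosterol and 5 with low sitosterol. The lowest liver was low sitosterol for 15, ergosterol for 14, stigmasterol for 7 and high sitosterol for 6. On TPM the same count gave 34, 5, 2 and 1 for the highest liver, in the order stigmasterol, high sitosterol, ergosterol and low sitosterol, and 32 were lowest with low sitosterol. Stigmasterol thus had the largest count on both scales. The same count was not made over all genes. On log2(TPM + 0.1) the median of all genes analysed with stigmasterol was itself 0.94 above low sitosterol. The larger count on TPM is therefore not shown to be particular to the set.

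In the adrenals the set differed little between the diets. For high against low sitosterol 1 of 42 was higher (2.38%, against 3.82% of all genes) and 0 lower (2.31%). The median was 0.03 beside 0.00 for all genes, and 21 of 42 were above 0 (50%, against 50.3% of all genes). Oas2 was the gene called, and Mx1 stood at the border with 1.23 and 2.48 scaled CPM (just under 2-fold, interval of the log2 ratio 0.52 to 1.51). Lowest was Gbp7, with 52.5 and 32.9 scaled CPM (log2 -0.67, interval -0.77 to -0.58). By role, the OAS family had a median of 0.63 with all 5 above 0, the transcription factors 0.50 with 4 of 4, and the RNA sensors -0.31 with 1 of 4. In the same comparison 6 of 15 macrophage markers analysed were higher, led by Marco at log2 4.93 (3 and 124 counts), and 6 of 6 neutrophil markers. The macrophage list summed to 703 and 1158 scaled CPM and the neutrophil list to 5.21 and 20.3. Their part in the values of the set was not tested. For high against low sitosterol, 6 of the 42 stood on opposite sides of equality in liver and adrenal with both intervals excluding it (14.3%, against 17.9% of the genes analysed in both tissues), so that share was not above the background.

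Between tissues at the same diet, on log2(TPM + 0.1), 33 of 42 genes were at least 2-fold higher in the low sitosterol adrenal than in the low sitosterol liver (77.3% of all genes were) and 3 were lower (7.69% of all genes). With high sitosterol 24 were higher (72% of all genes were) and 4 lower (8.74% of all genes). Both adrenal libraries went against their male label and the livers did not, so tissue and apparent sex cannot be told apart in these steps. The low sitosterol share was near that of all genes, so it is not a result about this set, and the set's median log2 step to adrenal lay below that of all genes with at least 1 TPM in either tissue (1.71 against 2.24 with low, 1.12 against 1.94 with high sitosterol). The largest steps were those of Rsad2, with 0.993 TPM in the low sitosterol liver and 28.1 in the adrenal, and Cmpk2, with 0.735 and 18.9. Iigp1 went the other way with 75.3 TPM in liver and 9.16 in adrenal, as did Ifitm3 with 1083 and 279 and Bst2 with 434 and 212. The neighbours Rsad2 and Cmpk2 thus had the largest steps towards adrenal, 28.3-fold and 25.7-fold, and they were also the pair with the largest ratios of stigmasterol to high sitosterol in liver.

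**Figure D4:**
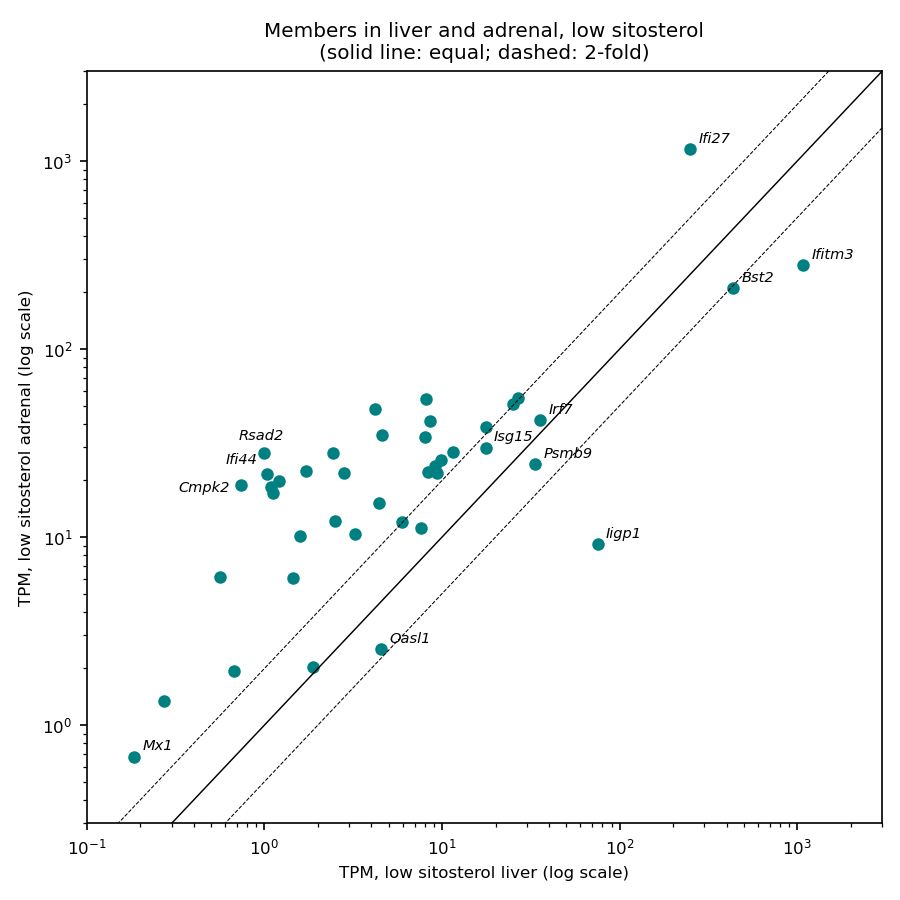
TPM of each of the 42 genes in the low sitosterol liver (horizontal log axis) and the low sitosterol adrenal (vertical log axis), 1 library each; the solid line is equality and the dashed lines are 2-fold. Most points lie above the upper dashed line, with Rsad2 (0.993 and 28.1 TPM), Cmpk2 and Ifi44 farthest from equality, and Iigp1, Ifitm3 and Bst2 lie below the lower one. The adrenal library goes against its male label.

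Transcripts of the interferons themselves were at or near 0. None of 21 interferon genes reached the 1 CPM limit, and every interferon alpha gene had 0 counts in each library. Ifng had 3, 6, 5 and 17 counts in the livers, against 1 and 3 in the adrenals, and Ifnz had 7 with ergosterol, 5 with stigmasterol, 3 in the high sitosterol adrenal and 0 elsewhere. Ifnl3 had 3 counts in the low sitosterol adrenal only, and Ifnb1 had 2 in the low sitosterol liver only. For Ifng with stigmasterol against low sitosterol the interval of the log2 ratio, -0.02 to 4.18, included equality. At this depth differences in ligand transcripts were not detectable.

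Of 6 receptor genes 4 were higher with stigmasterol (66.7%, against 21.6% of all genes), 1 (Il10rb) with high sitosterol and 0 with ergosterol. The chains of the interferon gamma receptor moved together: Ifngr1 had 14.4, 20.9, 14.3 and 35.7 scaled CPM in the livers and Ifngr2 had 14.4, 23.2, 15.4 and 38.7. Their stigmasterol ratios were 1.31 and 1.43. Il10rb, the chain shared by the interferon lambda and interleukin-10 receptors, had 8.97, 21.8, 6.20 and 22, and its partner Ifnlr1 had 5, 5, 2 and 71 counts. The chains of the type I receptor did not follow, with Ifnar1 at 34.7, 26.8, 26.5 and 27.0 and Ifnar2 at 67.4, 75.7, 62.3 and 56.5 scaled CPM. In the adrenals 0 of 5 receptor genes analysed were called.

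Of the 12 JAK-STAT genes and inhibitors 0 were higher in any sterol-loaded liver (8.66%, 6.03% and 21.6% of all genes were). With high sitosterol, ergosterol and stigmasterol 1, 1 and 2 were lower (8.33%, 8.33% and 16.7%, against 4.3%, 5.82% and 7.8% of all genes). The feedback inhibitor Cish was lower in all 3 sterol-loaded livers (log2 -1.99, -1.27 and -1.11), and Socs3 was lower with stigmasterol (-1.10). In the high sitosterol adrenal Socs3 (1.34) and Stat3 (1.59) were higher and Socs1 lower (-1.02). These were 16.7% higher and 8.33% lower, against 3.82% and 2.31% of all genes. The calls in this and the other lists outside the set were made with TMM scaling only. The stigmasterol library was the one most dependent on scaling. Cish is a target of growth hormone and cytokine signals through Stat5.

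Genes of nucleic acid sensing outside the set gave 3 of 27 higher with high sitosterol, 2 with ergosterol and 11 with stigmasterol, and 0 lower in each, with medians of 0.51, 0.09 and 0.73. These shares were 11.1%, 7.41% and 40.7%, against 8.66%, 6.03% and 21.6% of all genes, so those with high sitosterol and ergosterol lay near the background. The endosomal receptor Tlr7 and the factor Irf8, both typical of myeloid and dendritic cells, led with high sitosterol at log2 2.13 and 2.02. Tlr9 (4.39), Tlr8 (2.71), Tmem173 (STING, 2.70) and Irf8 (2.27) led with stigmasterol, and Tlr9 (2.91) with ergosterol. In the adrenals 1 of 27 was higher (3.7%, against 3.82%).

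A wider list held 52 further interferon-stimulated genes analysed in liver. With high sitosterol 15 of the 52 were higher and 0 lower (median 0.38), with ergosterol 3 and 2 (0.19), and with stigmasterol 21 and 0 (0.74). The shares higher were 28.8%, 5.77% and 40.4%, beside 8.66%, 6.03% and 21.6% of all genes. Ms4a4c and Epsti1 led with high sitosterol (2.22 and 2.12), and Ms4a4c, Tor3a and Epsti1 with stigmasterol (3.54, 2.59 and 2.51). In the adrenals 3 of 51 were higher (5.88%, against 3.82%) and 1 lower. This list was chosen with earlier results of these data known, like the set itself.

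Further GTPases and interferon gamma targets were split. With high sitosterol 6 of 16 were higher and 1 lower, with ergosterol 2 and 1, and with stigmasterol 6 and 4. The shares higher were 37.5%, 12.5% and 37.5%, beside 8.66%, 6.03% and 21.6% of all genes. Shares lower were 6.25%, 6.25% and 25%, beside 4.3%, 5.82% and 7.8%. Gbp8 and Gvin1 led with high sitosterol (2.53 and 1.85) and Gbp9 and Tgtp2 with stigmasterol (1.77 and 1.70), where Gbp2b (-4.04), Gbp11 (-2.83) and Gbp10 (-1.81) were lowest. Gbp11 was lower in all 3 sterol-loaded livers. The chemokine Cxcl10, an interferon gamma target, was higher with high sitosterol (1.65) and with stigmasterol (1.37). Close copies in these families may share reads.

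Class I antigen presentation genes showed 2 of 19 higher with high sitosterol, near the background (10.5%, against 8.66%; H2-Q6 and H2-Q4, at 1.06 and 1.02), 0 with ergosterol and 0 with stigmasterol, where 3 were lower (15.8%, against 7.8%): the endoplasmic reticulum chaperones Calr (-1.33) and Pdia3 (-1.04), and H2-Q7 (-1.09). Medians were 0.11, -0.14 and -0.23. The direction with stigmasterol turns with the scale: the median TPM of the 19 genes was 68.5 in the low sitosterol liver and 102.9 with stigmasterol. Psmb8 and Psmb9, which belong to the same pathway, had stigmasterol ratios of -0.05 and -0.28 on scaled CPM, but 0.64 and 0.41 with total counts.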

How the data were processed

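Estimated counts and TPM of each gene symbol in the 6 libraries were used as the authors deposited them. The submitters' processing notes name kallisto 0.43.1, Trimmomatic 0.33, HISAT2 2.0.5 and mm10, without role, and no source used here gives the annotation. Per the labels, libraries were made with a TruSeq kit (v2) that does not mark strand. Estimated counts were rounded, and 1 line naming no gene (0% of counts) was left out. TMM factors came from edgeR 4.0.16 (R 4.3.3) within each tissue. Log2 ratios used a prior count of 0.5, with exact conditional binomial (Clopper-Pearson) 95% intervals, and were checked on simulated counts. Reads copied by PCR are not independent, so intervals cover counting error only. No p-value was computed, since each group is 1 library. Gene positions are from GENCODE M21 (GRCm38), which named all 42 genes, and promoter sequences from RefSeq (GRCm38.p6).

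The members and lists were chosen with earlier results of these data known. Values in every library are given for the 14 members with the largest absolute log2 ratio in any of the 4 diet comparisons, among those that reach 10 scaled CPM in the higher library with equality outside the interval, for the member of each role group with the highest mean liver TPM, and for Isg15, Irf7, Stat2, Irf9, Psmb8, Psmb9 and Tap1. Other members past 2-fold are named as well, and of each further list up to 4 genes per comparison with the largest ratios. Counts and medians for the 4 diet comparisons were recomputed under the alternatives given in the closing section.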

Additional observations from a re-analysis of the deposited data

Results flagged for a closer look

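For high against low sitosterol, 6 of the 42 genes stood on opposite sides of equality in liver and adrenal, with both counting intervals excluding it. That is 14.3%, against 17.9% of the genes analysed in both tissues. The difference between the tissues was not tested, since each group is 1 library, and both adrenal libraries go against their male label. Ifi44 had a log2 ratio of 0.99 in liver and -0.56 in adrenal, a difference (liver minus adrenal) of 1.55. Xaf1 had 0.69 and -0.34, a difference of 1.03. Trim30a had 0.66 and -0.37, also a difference of 1.03. Ddx58 had 0.18 and -0.54, a difference of 0.72. The opposite direction held for Iigp1, with -0.53 in liver and 0.57 in adrenal (difference -1.10), and for Ifitm3, with -0.29 and 0.41 (difference -0.70). The liver ratio of Ifitm3 was -0.09 with total counts and -0.02 on log2(TPM + 0.1). None of these ratios, in either tissue, reached 2-fold with TMM scaling (Ifi44 in liver was at 1.19 with total counts).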

How the results depend on the processing

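No paired analysis was possible because each group is 1 library. Counts of the 42 genes higher and lower were recomputed under other scalings, low-count limits, prior counts and fold limits. They were also recomputed without the 13 genes listed by name as having close copies. For high against low sitosterol in liver, 6 higher became 10 with total counts, 13 with log2(TPM + 0.1) and 16 at 1.5-fold. These were 23.8%, 31% and 38.1% of the set, against 11.3%, 10.7% and 14.2% of all genes. For ergosterol, 2 higher became 4 with log2(TPM + 0.1), 1 with log2(TPM + 1) and 7 at 1.5-fold. Set shares were 9.52%, 2.38% and 16.7%, beside 12.1%, 5.07% and 14% of all genes. The 1 lower with ergosterol became 0 with total counts, with either TPM pseudocount and without close copies, and 5 (11.9%) at 1.5-fold. In the same order 4.56%, 2.95%, 1.41%, 5.82% and 12.5% of all genes were lower. The median of 0.02 became 0.47 and 0.35 with TPM pseudocounts of 0.1 and 1. For stigmasterol, 13 higher became 24 with total counts, 27 and 24 with the TPM pseudocounts, and 7 of 29 without close copies. Set shares were 57.1%, 64.3%, 57.1% and 24.1%, beside 39.5%, 46.5%, 30.8% and 21.6% of all genes. The 2 lower became 0 in each of these 4 settings, where 3%, 2.32%, 1.75% and 7.8% of all genes were lower. The median of 0.46 became 1.15, 1.34 and 1.08 in the first 3 settings. For the adrenals, 1 higher became 2 with total counts, 2 and 0 with the TPM pseudocounts and 4 at 1.5-fold, where 1 was lower. Set shares higher were 4.76%, 4.76%, 0% and 9.52%, beside 3.97%, 3.49%, 1.91% and 10.2% of all genes. At 1.5-fold 2.38% of the set and 7.16% of all genes were lower. The adrenal median of 0.03 changed sign to -0.0011 without close copies. Shares of all genes moved too: with stigmasterol, higher genes made up 73.5% of all calls with TMM, 92.9% with total counts and 95.2% with log2(TPM + 0.1). With ergosterol the shares were 50.9%, 65.1% and 80.4%, and with high sitosterol 66.8%, 78.4% and 81.5%. DESeq2 size factors changed 1 count (7 higher with high sitosterol, 16.7%, against 8.79% of all genes) and the sign of 0 genes. The sum of read-sharing pairs, chosen after seeing the data, gave 12 higher with stigmasterol. The cause of these changes was not tested. Low counts limit Mx1 and Oas3 most.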
